A study of Mus musculus with 5 samples.

Results

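The RNA-sensing genes described here are Ifih1, Dhx58, Tlr3, Zbp1, Mavs, Eif2ak2 and Adar, a set of double-stranded RNA sensors, their adaptor and an RNA editor that was chosen by gene symbol. All 7 of the 7 symbols were found among the 35976 genes of a raw count table. The libraries came from astrocytes of the amygdala, taken from mice of genotype Ccr2::CreERT2/+;DTR/+ and collected on magnetic beads against the astrocyte surface antigen ACSA-2. Every mouse carried the tamoxifen-inducible Cre at the Ccr2 locus and the diphtheria toxin receptor allele, was given tamoxifen, and was restrained in a tube on 18 days before it underwent fear conditioning with extinction. The groups were 3 libraries labelled DTx, for diphtheria toxin, and 2 libraries labelled saline, and both are called by these labels. The toxin serves to deplete cells with an active Ccr2 locus, mainly blood monocytes, and not the astrocytes that were sequenced. Age and sex are not stated in the labels, and a further saline library of the design is not analysed here.

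Cells recognise double-stranded RNA as a sign of viral infection or of unedited transcripts of their own. The cytosolic helicase receptors signal through an adaptor on mitochondria and the endosomal receptor TLR3 through a separate adaptor, and both routes lead to type I interferon. Interferon in turn raises the transcription of many of these sensors, whereas A-to-I editing by ADAR1 keeps endogenous RNA from being sensed. Astrocytes are known to express TLR3 and to respond to interferon.

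Total counts were 15961220 to 18708138 in the DTx-labelled libraries and 20577672 to 23720299 in the saline libraries. Levels are given as CPM, counts scaled to a common library total, after TMM scaling, which corrects for library composition. The 10 astrocyte markers examined were all detected, with a summed level of 24766 to 28303 CPM in the DTx-labelled group and 24629.5 to 25449.8 CPM in the saline libraries. The 9 oligodendrocyte and precursor markers summed to more in every library, at 41110.7 to 86708 CPM in the DTx-labelled and 57627 to 88381 CPM in the saline libraries. Ccr2, the chemokine receptor gene of monocytes, had 54, 4 and 4 counts in DTx-labelled libraries 5A, 6A and 7A against 0 in both saline libraries. The counts were thus not lower under the DTx label, but Ccr2 had too few counts to enter the test. Whether monocytes were lost in the mice was not tested. Xist, the RNA of the inactive X chromosome, had 3, 0 and 0 counts in the DTx-labelled libraries and 3739 and 2876 in the saline libraries, and the Y-linked helicase gene Ddx3y had 2309, 1865 and 2365 against 4 and 1. The treatment label and the state of the sex chromosomes therefore cannot be told apart in any result below.

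The promoter sequences of the genes with a window in RefSeq (GRCm38.p6) are shown for what the genes share apart from their selection. Each window runs from 250 bases before to 50 bases after an annotated start, and 5 of the 7 genes have one. The motifs searched, on both strands, were GAAANNGAA, a core of the interferon-stimulated response element (ISRE), and a longer form in which this core is followed by a further A, so that every match of the longer form contains the core. Matches of either are in capitals, and the sequences read 5′ to 3′ on the strand of the gene.
Ifih1, chr2:62646206-62646505, minus strand: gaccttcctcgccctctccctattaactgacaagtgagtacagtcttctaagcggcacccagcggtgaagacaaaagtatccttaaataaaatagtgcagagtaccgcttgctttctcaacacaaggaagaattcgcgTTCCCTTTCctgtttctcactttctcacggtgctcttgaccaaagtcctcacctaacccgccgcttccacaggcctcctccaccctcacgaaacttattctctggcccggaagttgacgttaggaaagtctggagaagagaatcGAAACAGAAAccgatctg
Eif2ak2, chr17:78882523-78882822, minus strand: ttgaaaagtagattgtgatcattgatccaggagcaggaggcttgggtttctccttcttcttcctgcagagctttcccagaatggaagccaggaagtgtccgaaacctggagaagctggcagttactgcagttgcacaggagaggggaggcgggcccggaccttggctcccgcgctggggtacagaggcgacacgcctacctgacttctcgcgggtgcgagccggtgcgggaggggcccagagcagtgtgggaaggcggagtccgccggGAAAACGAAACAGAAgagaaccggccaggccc
Adar, inner start, chr3:89730468-89730767, plus strand: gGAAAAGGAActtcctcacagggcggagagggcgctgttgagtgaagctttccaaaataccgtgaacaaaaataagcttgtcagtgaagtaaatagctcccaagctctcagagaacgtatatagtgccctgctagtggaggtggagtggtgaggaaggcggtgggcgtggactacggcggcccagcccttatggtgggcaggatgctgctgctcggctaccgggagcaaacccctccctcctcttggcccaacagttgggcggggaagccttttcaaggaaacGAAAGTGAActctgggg
Tlr3, chr8:45410331-45410630, minus strand: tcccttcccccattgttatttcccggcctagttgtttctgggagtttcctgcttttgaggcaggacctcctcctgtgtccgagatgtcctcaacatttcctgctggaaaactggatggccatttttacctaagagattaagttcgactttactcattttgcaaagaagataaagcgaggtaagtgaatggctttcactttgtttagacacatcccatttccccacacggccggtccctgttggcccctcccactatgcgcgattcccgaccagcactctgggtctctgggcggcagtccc
Mavs, chr2:131233813-131234112, plus strand: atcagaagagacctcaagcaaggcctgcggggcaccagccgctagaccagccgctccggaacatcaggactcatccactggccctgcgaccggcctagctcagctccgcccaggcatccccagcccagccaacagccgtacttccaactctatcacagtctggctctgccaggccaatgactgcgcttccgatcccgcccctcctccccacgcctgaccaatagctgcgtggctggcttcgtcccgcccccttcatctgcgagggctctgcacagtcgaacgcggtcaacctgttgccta

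Ifih1 had a match of the longer form 33 to 42 bases from its start, and Eif2ak2 had one at 19 to 28 bases. Adar had no match of the longer form, but its window at the inner start had the core at 34 to 42 bases and at -249 to -241. Its 2 outer windows, like the Tlr3 and Mavs windows, held neither. The pattern TTCNNNGAA of the interferon-gamma activated site was found before the Eif2ak2 start and after the inner Adar start, and in 8.298% of all windows. The longer form was present in 3.44% of the 32851 windows of the table and the core in 8.56%. A match is a description of the letters and not evidence of binding.

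**Figure D1:**
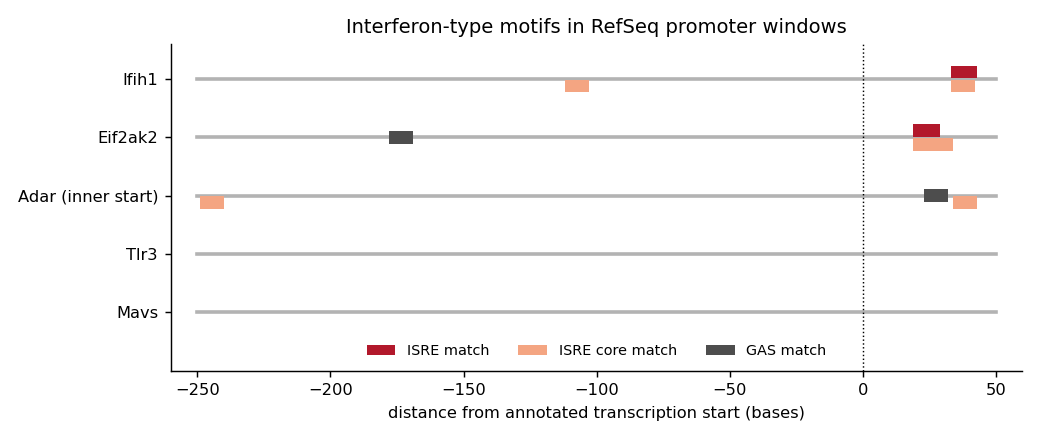
Positions of motif matches in the promoter windows of 5 genes, in bases from the annotated transcription start (dotted line); grey lines are the windows, dark red bars the longer ISRE form, light bars its core and grey bars the interferon-gamma activated site (GAS) pattern TTCNNNGAA. Ifih1 and Eif2ak2 carry the longer form shortly after the start, and the windows of Tlr3 and Mavs carry no match.

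Of the 7 genes, 4 were higher in all 3 DTx-labelled libraries than in both saline libraries, namely Zbp1, Ifih1, Dhx58 and Eif2ak2, by 7.56-, 2.86-, 2.09- and 1.63-fold. Over all 15532 genes tested, 12.1% were separated in this direction. In the other direction 0 of the 7 were separated, against 8.99% of all genes. The log2 fold change was above 0 for 6 of the 7, against 50.4% of all genes. The adaptor Mavs, the endosomal receptor Tlr3 and the editor Adar overlapped between the groups, with fold changes of 0.995, 1.02 and 1.18. With edgeR's quasi-likelihood test 0 of the 7 genes passed an adjusted p of 0.05, against 0.0322% of all genes tested. At an unadjusted p under 0.05, 4 of the 7 were higher, where 4.49% of all genes were. Among them Zbp1 was below the minimum level of the test in both saline libraries and so was tested through the group where it was high. Among the fits with a DTx-labelled library left out, the count was lowest without 6A, at 2. Over all genes the number at this level in either direction then fell from 1038 to 478. For fits that leave 1 saline library only fold changes of the 7 genes are given. Without saline replicate 1 the log2 fold changes of Ifih1, Dhx58 and Eif2ak2 fell to 1.33, 0.68 and 0.59, and that of Zbp1 rose to 3.25. DESeq2 and limma-voom also called 0 of the 7, where they called 0.729% and 0.0322% of all genes, and the edgeR likelihood ratio test called 1, Zbp1, with 0.599% of all genes called by it. The median log2 fold change was 0.71 over the 7 genes and 0.00 over all genes tested (0.002385).

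**Figure D2:**
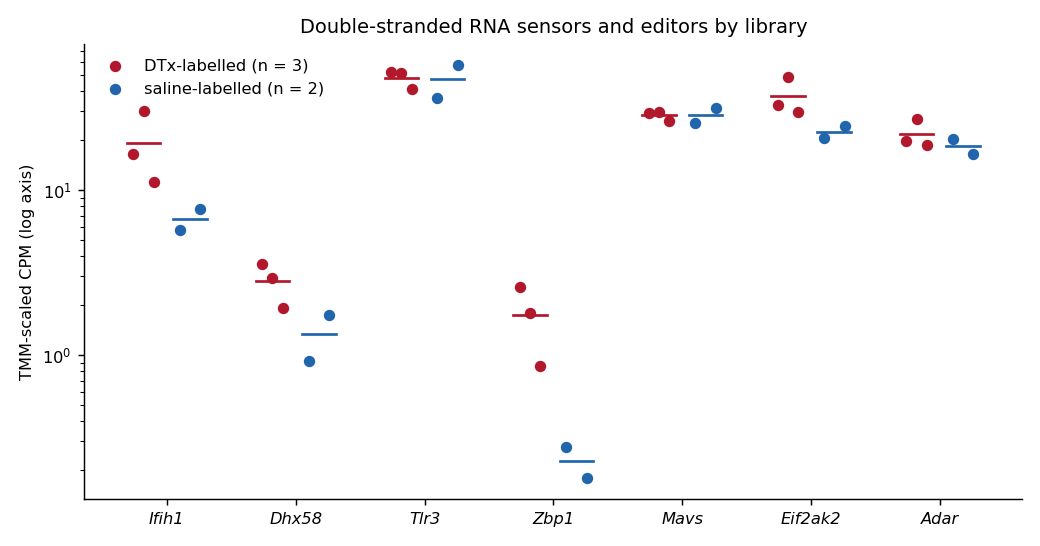
Level of each gene in each library as TMM-scaled CPM on a log axis, with DTx-labelled libraries left (red, n = 3) and saline libraries right (blue, n = 2); short lines are group means. The groups are apart for Ifih1, Dhx58, Zbp1 and Eif2ak2 and overlap for Tlr3, Mavs and Adar.

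Among the cytosolic helicase receptors, Ifih1 encodes MDA5, which binds long double-stranded RNA (GRCm38 chromosome 2, 62595618 to 62646255). Its level was 16.6, 30.2 and 11.2 CPM in DTx-labelled libraries 5A, 6A and 7A, against 5.77 and 7.67 CPM in saline replicates 1 and 2. Every DTx-labelled library lay above both saline libraries, and library 6A stood highest, at 4.49-fold the saline mean, with 7A lowest at 1.66-fold. The means were 19.3 ± 9.78 CPM (SD, n = 3) and 6.72 ± 1.34 CPM (SD, n = 2). The log2 fold change was 1.52 ± 0.443 (SE), and the fold had a 95% interval of 1.36 to 6.02 (edgeR unadjusted p = 0.0129, adjusted p = 0.742). Without library 6A the log2 fold change was 1.05.

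Dhx58 encodes LGP2, a helicase without signalling domains that modulates MDA5 and RIG-I (chromosome 11, 100694884 to 100704271). It was at 3.54, 2.92 and 1.94 CPM in DTx-labelled 5A, 6A and 7A, against 0.923 and 1.75 CPM in the saline libraries. The groups were separated by a narrow gap, between library 7A and saline replicate 2. The fold was 2.09, with a 95% interval of 1.02 to 4.28 (edgeR unadjusted p = 0.0452, adjusted p = 0.745). On the log2 scale it was 1.06, but 0.68 without saline replicate 1, 1.60 without saline replicate 2 and 0.37 once the mean of the microglia markers entered the model.

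Ddx58, which encodes RIG-I, the remaining receptor of this family, is named here after its values were seen. DTx-labelled libraries 5A, 6A and 7A had 14.96, 18.0 and 6.66 CPM, against 4.89 and 5.47 CPM in the saline libraries, without overlap. Its log2 fold change was 1.35 ± 0.426 (SE, edgeR adjusted p = 0.742). Ifih1, Dhx58 and Ddx58 were thus each separated between the groups, as were 12.1% of all genes tested in this direction, and none passed the test. With Ddx58 added in this way, they are not a count over a family chosen beforehand.

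Zbp1 encodes a sensor of left-handed Z-form RNA and DNA that can start necroptosis through RIPK3 (chromosome 2, 173206612 to 173218959). It was the least abundant gene of the set, with 49, 29 and 15 counts in DTx-labelled libraries 5A, 6A and 7A against 6 and 4 counts in the saline libraries. These counts correspond to 2.59, 1.804 and 0.854 CPM against 0.277 and 0.179 CPM. The gene reached the minimum level of the test (0.535 CPM, from a count of 10 in a library of median size) in the 3 DTx-labelled libraries and in 0 of the 2 saline libraries, so it entered the test through the group where it was high. The fold was 7.56 with a 95% interval of 2.35 to 24.4 (edgeR unadjusted p = 0.00483, adjusted p = 0.734). With the likelihood ratio test, which takes the estimated spread between libraries as known, the adjusted p was 0.0487, and with DESeq2 it was 0.0706.

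Tlr3, the endosomal receptor for double-stranded RNA (chromosome 8, 45395665 to 45411075), had 51.6, 51.6 and 40.8 CPM in DTx-labelled 5A, 6A and 7A, against 36.2 and 57.6 CPM in the saline libraries. The saline values lay below and above all DTx-labelled ones. The fold was 1.02 with a 95% interval of 0.701 to 1.49 (edgeR adjusted p = 0.974), so a change of 2-fold in either direction lies outside the interval. The sign of the small difference turned without library 5A, 6A or saline replicate 1, to -0.02, -0.02 and -0.27 on the log2 scale.

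Mavs, the mitochondrial adaptor through which MDA5 and RIG-I signal (chromosome 2, 131234063 to 131248025), was the steadiest of the 7 genes. It was at 29.3, 29.6 and 26.1 CPM in DTx-labelled 5A, 6A and 7A, against 25.3 and 31.6 CPM in the saline libraries. The fold was 0.995 with a 95% interval of 0.761 to 1.30 (edgeR adjusted p = 0.993), and the sign of this difference turned with total-count scaling, without library 7A and without saline replicate 2, to log2 fold changes of 0.014, 0.05 and 0.16.

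Eif2ak2 encodes PKR, the kinase that binds double-stranded RNA and halts translation by phosphorylating the initiation factor eIF2 (chromosome 17, 78850504 to 78882572). Its level was 32.9, 48.5 and 29.6 CPM in DTx-labelled 5A, 6A and 7A, against 20.7 and 24.5 CPM in the saline libraries. All DTx-labelled values were above the saline ones, and library 6A stood highest, as for Ifih1. The fold was 1.63 with a 95% interval of 1.09 to 2.45 (edgeR unadjusted p = 0.0238, adjusted p = 0.742). Without library 6A the log2 fold change was 0.46, against 0.71 with it. Other annotated genes overlap its span, a transcribed pseudogene, Gm6548, by 2041 bases and Gm26637 by 689 bases. Gm6548 itself had 176, 146 and 90 counts in the DTx-labelled libraries and 114 and 111 in the saline libraries, and with strand use unstated reads of the shared span cannot be told apart.

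Adar encodes ADAR1, the enzyme that converts adenosine to inosine in double-stranded RNA and whose longer, interferon-inducible form starts from its own promoter (chromosome 3, 89714469 to 89753455). It was at 19.9, 26.9 and 18.8 CPM in DTx-labelled 5A, 6A and 7A, against 20.5 and 16.5 CPM in the saline libraries. Library 6A was above the rest, and the other libraries of both groups were mixed. The fold was 1.18 with a 95% interval of 0.827 to 1.69 (edgeR adjusted p = 0.818). Gene-level counts join the 2 protein forms, so a change of the longer form alone was not measured.

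**Figure D3:**
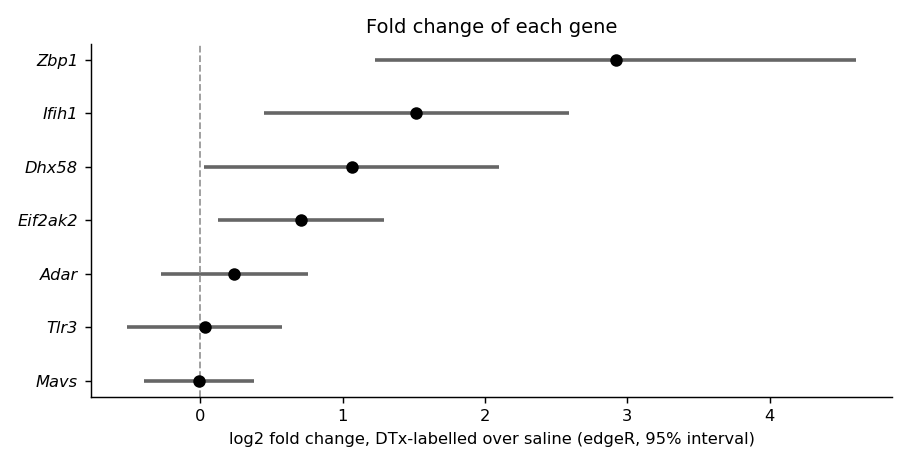
Log2 fold change of each gene, DTx-labelled over saline, from edgeR (points) with 95% intervals (bars); the dashed line marks no difference. Zbp1, Ifih1, Eif2ak2 and Dhx58 have intervals above 0 before any adjustment for the number of genes tested, and those of Adar, Tlr3 and Mavs include 0.

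To compare levels between genes, CPM was divided by the length of the merged exons in GENCODE M21, in kilobases. Tlr3 stood at 9.22 ± 1.20, Mavs at 8.47 ± 0.571 and Eif2ak2 at 7.24 ± 1.98 CPM per kb in the DTx-labelled libraries (SD, n = 3). The same genes stood at 9.01 ± 2.90, 8.51 ± 1.32 and 4.42 ± 0.531 CPM per kb in the saline libraries (SD, n = 2). Tlr3 and Mavs did not differ beyond their spread in either group. Adar was at 2.69 ± 0.544 and Ifih1 at 2.37 ± 1.20 CPM per kb in the DTx-labelled libraries, within each other's spread, whereas in the saline libraries Adar was at 2.28 ± 0.357 and Ifih1 at 0.823 ± 0.164 CPM per kb. Dhx58 followed with 0.856 ± 0.247 against 0.408 ± 0.178 CPM per kb, and Zbp1 was last with 0.496 ± 0.246 against 0.0647 ± 0.0196 CPM per kb. The order of the 7 genes by mean was the same in both groups.

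The DTx-labelled libraries differed among themselves. Ifih1, Eif2ak2 and Adar were highest in library 6A, and Zbp1 and Dhx58 were highest in library 5A. Between the highest and the lowest DTx-labelled library the level differed 3.03-fold for Zbp1, 2.702-fold for Ifih1, 1.83-fold for Dhx58, 1.64-fold for Eif2ak2, 1.43-fold for Adar, 1.27-fold for Tlr3 and 1.13-fold for Mavs. Library 7A was the lowest of the DTx-labelled group for all 7 genes. Over genes of at least 20 counts it was nearer to saline replicate 2, with a chi-square per degree of freedom of 17.7, than to libraries 5A and 6A, with 60.7 and 58.4. The oligodendrocyte and precursor markers summed to 86708 CPM in library 7A and 88381 CPM in saline replicate 2, against 41110.7 and 42465.5 CPM in libraries 5A and 6A and 57627 CPM in saline replicate 1. The part of this likeness in the low sensor levels of library 7A was not tested.

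Markers of other cells moved across the same libraries. The 14 microglia markers summed to 588, 437 and 350 CPM in DTx-labelled libraries 5A, 6A and 7A and to 150.1 and 356 CPM in saline replicates 1 and 2, with 5 markers separated and none at 0. Dhx58 had the same order over the 5 libraries as this sum, apart from library 7A, which lay above saline replicate 2. The 10 monocyte and border macrophage markers summed to 221, 27.4 and 81.2 CPM against 24.4 and 34.5 CPM. Library 5A stood apart on this list, whereas library 6A, with the highest Ifih1 and Eif2ak2, lay within the saline range. Of the defining monocyte markers, Ly6c2 was at 0 in the 3 DTx-labelled libraries and in saline replicate 1, and Ccr2 in both saline libraries. The 9 neuron markers summed to 299, 404 and 306 CPM in the DTx-labelled group and 245 and 228 CPM in the saline libraries, with 4 markers separated and none at 0. The separated microglia and neuron markers were higher in the DTx-labelled libraries, as were 12.1% of all genes tested. Of the 9 endothelial and mural markers, 0 were separated in this direction and 2 in the other, where 8.99% of all genes were. Of the 10 astrocyte markers, 1 was separated as higher and 2 as lower. Of the 9 oligodendrocyte and precursor markers, 0 were separated as higher and 1 as lower. In the exact permutation test on mean log2 CPM, 0.1 is the smallest p that 3 against 2 libraries allow. The astrocyte markers themselves had this p of 0.1 (adjusted 0.42), at 10.59, 10.67 and 10.58 against 10.38 and 10.54. For the other cells p was 0.2 for microglia, 0.3 for monocytes and macrophages and 0.3 for neurons in this test. Bulk counts cannot tell more cells of a type from more RNA per cell, and the part of these cells in the sensor levels was not tested. In a model that also held the mean of the microglia markers, the log2 fold changes were 2.12 for Zbp1, 1.18 for Ifih1 and 0.55 for Eif2ak2, and 0 of the 7 genes had an unadjusted p under 0.05. Over all genes tested the number at that level also fell in this model, from 1038 to 469.

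**Figure D4:**
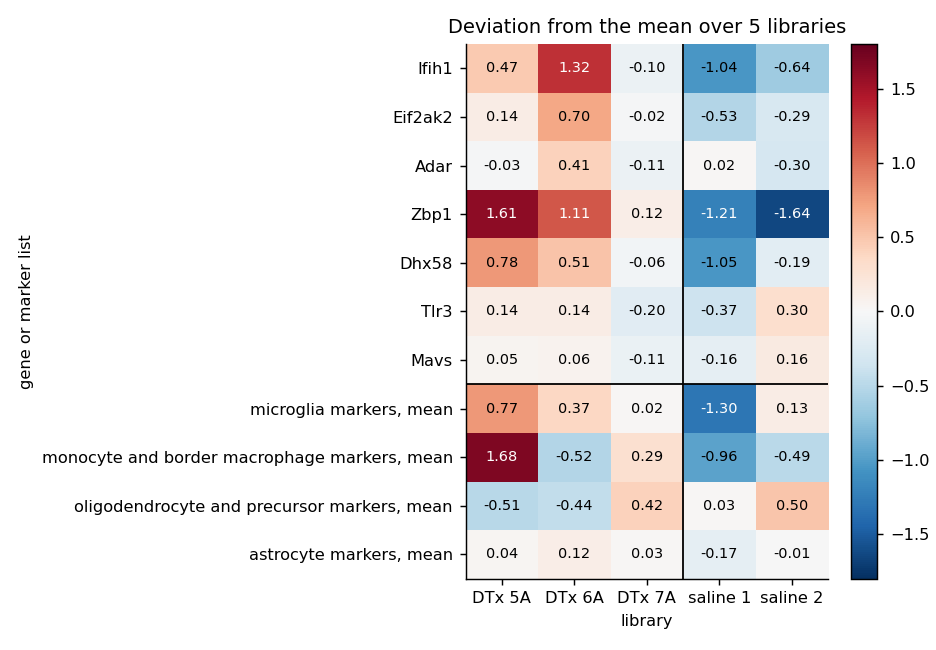
Deviation of each gene and of the mean of each marker list from its own mean over the 5 libraries, as centred log2 CPM (color and number), with DTx-labelled libraries left of the line. Ifih1, Eif2ak2 and Adar peak in library 6A, Zbp1 and Dhx58 in 5A, and the monocyte and border macrophage markers peak in 5A and are low in 6A.

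The genes whose profile over the 5 libraries was nearest to each sensor were found among 13928 genes of at least 1 CPM, by the root mean square difference of centred log2 CPM. Only sensors whose log2 CPM ranged over more than 1 were used. Near to Ifih1 was Lgals3bp, a secreted scavenger receptor family protein, at a difference of 0.12 log2 units. It was at 81.1, 124 and 55.8 CPM in DTx-labelled 5A, 6A and 7A, against 29.9 and 40.2 CPM in saline, the same order of libraries as Ifih1. Nearest to Dhx58 were Rgs10, Laptm5 and Tspo, which are expressed by microglia and macrophages, at 0.11 each. Zbp1 had no equally close match, with Resp18 at 0.30, the interferon-induced Rtp4 at 0.32 and the neuropeptide precursor Cartpt at 0.34. Eif2ak2 was closest to Lypd1 (0.05), Gm20743 (0.06) and Rgl1 (0.07).

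Ratios within a library asked whether a gene moved apart from a partner or paralog. They are on a log2 scale of CPM plus 0.5, and none of the 4 could pass with these group sizes. Ifih1 over Mavs was -0.80, 0.03 and -1.19 in libraries 5A, 6A and 7A, against -2.04 and -1.98 in the saline libraries, without overlap (two-sided exact permutation p = 0.1, adjusted 0.267). The receptor thus lay 1.36 log2 units closer to its adaptor in the DTx-labelled libraries. Eif2ak2 over the mean of the other eIF2 kinases was 0.63, 1.15 and 0.31 against -0.01 and 0.05 (exact p = 0.2). Zbp1 over Ripk3, its downstream kinase, was 2.23, 2.03 and 0.59 against 0.51 and 0.32 (exact p = 0.2). Ripk3 itself had only 11 counts in the 3 DTx-labelled libraries and 2 in the saline libraries, and Mlkl, the executioner of necroptosis, had 11 and 9. Ripk3 was below the added 0.5 CPM in every library. This ratio thus mostly follows Zbp1 and cannot show whether Zbp1 moved apart from Ripk3. Its group difference was 1.21 log2 units, and 1.47 with 0.1 CPM added. Adar over Adarb1, its editing paralog ADAR2, was -0.61, -0.49 and -0.69 against -1.68 and -0.40 (exact p = 0.6). The saline libraries lay on both sides of the DTx-labelled ones. Adarb1 was at 67.0 and 21.8 CPM in saline replicates 1 and 2, against 30.7, 38.1 and 30.7 CPM in the DTx-labelled libraries.

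Other genes of the pathways were described from 7 lists, chosen with earlier results of these data known, by their counts and medians. With edgeR's quasi-likelihood test and limma-voom 0 genes of any list passed, whereas DESeq2 called 9 and the likelihood ratio test 8, among them Irf7, Ddx60, Oasl2 and Irf9 by both. Over all genes DESeq2 called 0.729% and the likelihood ratio test 0.599%. Oas1a and Ifi204, also called by both, reached the minimum level only in DTx-labelled libraries. The counts below give genes at an unadjusted p under 0.05, which 6.68% of all genes reached in either direction. That share is 1038 genes, and 469 reached the level in the model with the microglia marker mean. Of 20 partners of the RIG-I-like receptors tested, 8 were higher and 0 lower at that level, with a median log2 fold change of 0.10. Irf7, a transcription factor of interferon genes that interferon induces, averaged 14.4 ± 10.1 CPM in the DTx-labelled group and 1.12 ± 0.506 CPM in the saline libraries. Ddx60, a helicase that assists these receptors, averaged 10.2 ± 6.51 against 0.936 ± 0.309 CPM, and Trim25, the ubiquitin ligase of RIG-I, 14.4 ± 3.48 against 6.88 ± 1.24 CPM. Zc3hav1, the antiviral zinc finger protein ZAP, averaged 53.7 ± 7.44 against 33.4 ± 1.39 CPM (SD, n = 3 and n = 2 throughout). Of the genes downstream of Mavs, the kinase gene Tbk1 had a log2 fold change of 0.12 and Irf3 of 0.00 (-0.001412), both named after their values were seen. In the model with the microglia marker mean, 2 of the 20 genes were at the unadjusted level. Among the 8, Nlrc5 was below the minimum level in both saline libraries.

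In the list of TLR3 and necroptosis partners, 1 of 10 genes tested was higher at the unadjusted level and 0 were lower, with a median of 0.60. That gene was Cd14, a co-receptor of Toll-like receptors in myeloid cells, at 32.9, 4.42 and 13.7 CPM in DTx-labelled 5A, 6A and 7A against 2.31 and 3.59 CPM. Tlr7, an endosomal receptor for single-stranded RNA, was at 4.49, 1.43 and 1.54 CPM against 0.323 and 1.30 CPM, and both were highest in library 5A. Casp8, which restrains necroptosis, averaged 2.48 ± 1.38 CPM against 0.996 ± 0.494 CPM, and Ripk1 13.3 ± 0.929 against 10.1 ± 0.786 CPM. For these 4 genes the edgeR adjusted p was 0.742 to 0.764. Tlr8, also tested, reached the minimum level only in DTx-labelled libraries, so it entered the median of this list through them. With a filter of at least 1 CPM in 2 libraries the median was 0.39.

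Around PKR, 0 of 12 genes reached the unadjusted level, their groups all overlapped and the log2 fold changes ran from -0.18 to 0.26 (median -0.02). The stress-activated kinase genes Eif2ak1, Eif2ak3 and Eif2ak4 had log2 fold changes of 0.16, -0.16 and -0.03, against 0.71 for Eif2ak2. Prkra, the activator protein of PKR, averaged 18.9 ± 3.87 against 15.8 ± 4.46 CPM. Dnajc3, an inhibitor of PKR, averaged 231 ± 11.1 against 260.0 ± 25.7 CPM, and Nck1 21.8 ± 1.52 against 19.4 ± 2.88 CPM.

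Of 16 other proteins that bind or edit double-stranded RNA, 0 were higher and 1 was lower at the unadjusted level, with a median of -0.01. That gene was Dicer1, the nuclease of the microRNA pathway, at 25.4, 25.2 and 26.4 CPM in the DTx-labelled group and 38.6 and 30.7 CPM in the saline libraries (log2 fold change -0.43 ± 0.156 SE, edgeR adjusted p = 0.742). Dhx9, an RNA helicase, averaged 21.8 ± 1.43 against 24.5 ± 0.550 CPM, Strbp 55.9 ± 1.31 against 65.3 ± 17.2 CPM and Pnpt1, a mitochondrial RNA nuclease, 25.0 ± 4.34 against 20.4 ± 7.29 CPM.

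The 2-5A synthetases, which sense double-stranded RNA and activate RNase L, had the highest median, 3.74 on the log2 scale over 7 genes tested, with 5 higher and 0 lower at the unadjusted level. Oasl2 was at 30.1, 64.2 and 9.91 CPM in DTx-labelled 5A, 6A and 7A against 2.08 and 2.82 CPM. Oas1a was at 3.22, 3.421 and 0.911 CPM against 0.139 and 0.179 CPM, and Oas1b at 1.11, 1.87 and 0.228 CPM against 0.0462 and 0.0448 CPM. Oasl1 had 26, 23 and 3 counts against 0 and 3. In CPM, library 6A was highest for all 4 genes and library 7A the lowest of the DTx-labelled group. Counts of the near-identical Oas1 copies are uncertain, and 4 of the 7 genes, Oas1a, Oas1b, Oas3 and Oasl1, reached the minimum level only in DTx-labelled libraries. These are 4 of the 5 counted as higher, so the count and the median are given as a description. The median was 2.18 with 2 genes at the unadjusted level without library 5A, 2.44 with 3 genes without library 6A, and 1.959 with 1 gene in the model with the microglia marker mean. Without saline replicate 1 or 2 the number of genes was 2 or 3.

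**Figure D5:**
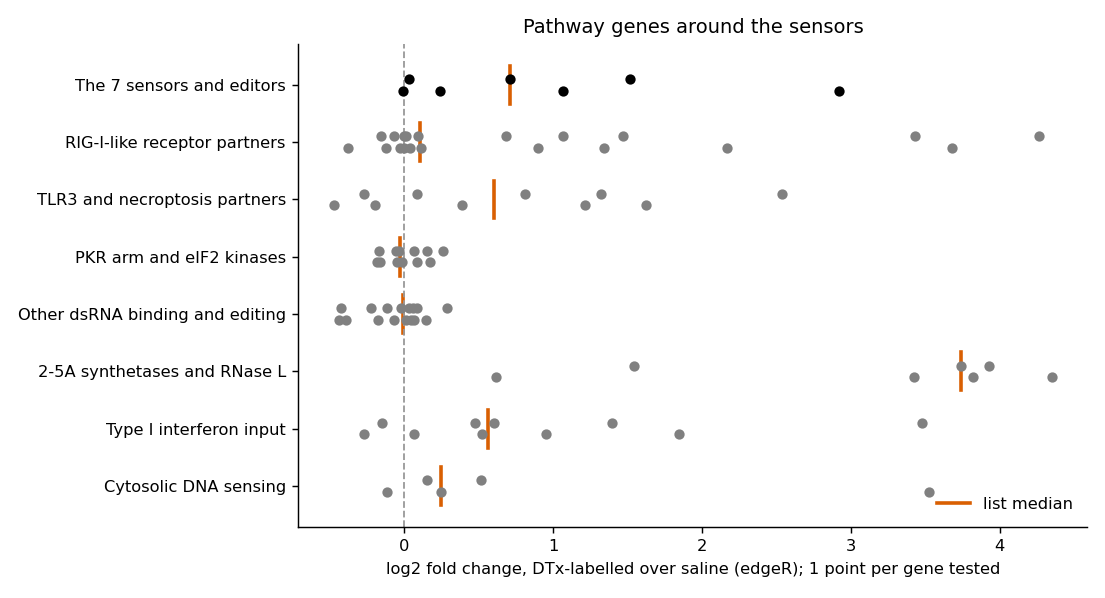
Log2 fold change, DTx-labelled over saline, of each gene tested in the set of 7 (black) and in 7 pathway lists (grey), with list medians in orange. The 2-5A synthetases have the highest median, 3.74, and the lists around PKR and of other double-stranded RNA binding proteins lie around 0, from -0.43 to 0.29.

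On the side of interferon input, the genes Ifnb1, Ifna2, Ifna4 and Ifna5 had 0 counts in all 5 libraries, which allows up to 0.187 CPM in the shallowest DTx-labelled library and 0.139 CPM in saline replicate 1 (3 counts, counting error only). Of 10 genes tested, 5 were higher and 0 lower at the unadjusted level, with a median of 0.57. The number at the unadjusted level was 3 without library 5A, 6A or saline replicate 1, and 2 in the model with the microglia marker mean. Irf9, a transcription factor of the interferon response, averaged 31.0 ± 12.7 against 8.61 ± 0.689 CPM, and Usp18, a feedback inhibitor of the interferon receptor, 18.1 ± 13.5 against 1.61 ± 0.320 CPM. Ifnar2, a chain of that receptor, averaged 26.6 ± 3.28 against 18.4 ± 1.96 CPM. Ifnar1, the other chain, named after its values were seen, was lower without overlap, at 56.3, 59.5 and 56.2 CPM in DTx-labelled 5A, 6A and 7A against 62.2 and 64.6 CPM in saline (log2 fold change -0.14, edgeR unadjusted p = 0.290). Among 5 genes of cytosolic DNA sensing tested, 1 was higher, Ifi204, at 4.76, 1.37 and 1.77 CPM against 0.185 and 0.269 CPM. Both saline values of Ifi204 were below the minimum level, so it too was tested through the DTx-labelled libraries. With the microglia marker mean in the model, 0 genes of this list and 0 of the TLR3 and necroptosis list were at the unadjusted level. Trex1 averaged 7.43 ± 1.44 against 6.23 ± 0.130 CPM, Tmem173, which encodes STING, 2.73 ± 1.25 against 1.92 ± 1.09 CPM, and Samhd1 10.4 ± 1.23 against 9.36 ± 1.09 CPM. ISRE matches of the longer form stood in a promoter window of 4 of 6 genes of the 2-5A list with a window, 5 of 12 of the interferon input list and 3 of 18 of the RIG-I-like list. Of the 5 interferon input genes with a match, 3 were Ifna2, Ifna4 and Ifna5, which had 0 counts throughout, and Irf9 and Ifnar2 had no match. Oasl1 and Oasl2 had no match either. For the lists of other double-stranded RNA binding proteins and DNA sensing it was 0 of 14 and 0 of 4, and 2 of 11 around PKR and 1 of 9 for TLR3 and necroptosis.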

How the data were processed

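RNA-seq counts of 5 libraries were used, 3 labelled DTx and 2 saline. The authors deposited raw read counts per gene, not pooled. Per the submitters' processing notes reads were handled with STAR 2.7.5c and featureCounts 2.0.1 on GRCm38 (mm10), among other tools. Annotation and strand use: not given in the sources used here. Each library was built from 5 ng of total RNA, per the labels' protocols.

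The saline columns were matched by the word Ctrl and their number. The numbers 5A, 6A and 7A of the DTx columns stand in no label and serve as names only. Left out was 1 further column with the word Ctrl, as its number matched no sample. The labels do not say that each library is 1 mouse, and p-values speak only of how these libraries vary, which may be technical. No libraries were duplicates, since the smallest chi-square per degree of freedom of a pair was 14.2 (genes of at least 20 counts).

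Counts were fitted with edgeR 4.0.16 in R 4.3.3 (TMM, filterByExpr with a minimum count of 10, robust quasi-likelihood F test, Benjamini-Hochberg adjustment over 15532 genes, threshold 0.05). The fit was tested on simulated data. Profile distances used log2 CPM with a prior count of 2. Alternatives were DESeq2 1.42.0, limma-voom (limma 3.58.1), the edgeR likelihood ratio test, other scalings and filters, each library left out and a microglia covariate. Symbols, positions and promoters come from RefSeq GRCm38.p6. The genes and lists were chosen with earlier results of these data known. By rule, all 7 genes, up to 4 genes of smallest p in each list, and the 3 nearest profiles of each gene were named, except for some that are not reported here.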

Additional observations from a re-analysis of the deposited data

How the results depend on the processing

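The count of the 7 sensors and editors past the threshold was 0 under both other scalings, both other filters, DESeq2, limma-voom, the microglia covariate and with any 1 library left out (0 to 0), and 1 with the edgeR likelihood ratio test (Zbp1, log2 fold change 2.91). Over all genes 5 passed, 111 with DESeq2, 93 with the likelihood ratio test, 3 with the microglia covariate and 3 to 13 with a library left out, the lowest without library 6A and the highest without 7A. Directions of Ifih1, Dhx58, Zbp1, Eif2ak2 and Adar held under all these settings. That of Tlr3 turned with the microglia covariate (-0.39) and ranged from -0.27 to 0.41 with a library left out. Mavs turned with total-count scaling (0.014) and ranged from -0.16 to 0.16. With a library left out, log2 fold changes ranged from 1.05 to 1.79 for Ifih1, 0.68 to 1.60 for Dhx58, 2.496 to 3.25 for Zbp1, 0.46 to 0.85 for Eif2ak2 and 0.06 to 0.41 for Adar, with the lowest adjusted p 0.0872, for Zbp1.

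DESeq2 called 3 genes of the RIG-I-like list (Irf7, Ddx60, Ifit1), 1 of the TLR3 list (Cd14), 2 of the 2-5A list (Oas1a, Oasl2), 2 of the interferon input list (Irf9, Usp18) and 1 of the DNA sensing list (Ifi204). The likelihood ratio test called the same genes apart from Cd14, that is 3, 0, 2, 2 and 1. Of the genes called, Oas1a and Ifi204 reached the minimum level only in DTx-labelled libraries. Without library 7A, 2 genes of the RIG-I-like list passed (Ifit1 and Ddx60, 0 to 2). With the microglia covariate the list medians were 0.34 for the RIG-I-like, 0.17 for the TLR3 and 1.96 for the 2-5A list. With a library left out they were 0.14 to 0.35 (RIG-I-like), 0.31 to 0.83 (TLR3), 2.18 to 4.24 (2-5A), -0.022 to 0.15 (PKR), 0.43 to 0.74 (interferon input), 0.072 to 0.76 (DNA sensing) and -0.02 to 0.01 (other double-stranded RNA binding). Adar over Adarb1 ranged from -0.20 to 1.08, turning without saline replicate 1. The cause of these shifts was not tested. Leaving out a saline library leaves 1, which is assumed to vary like the rest. No paired analysis was possible because the DTx columns carry no replicate number. Depth sets the upper limits given for the interferon genes at 0 counts.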
